A study of Homo sapiens with 12 samples.

Results

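Interferon-stimulated effector genes were followed in U937 cells treated with DAC (decitabine), ATRA (all-trans retinoic acid) or both. The set comprised 46 gene symbols of 44786 in the table, chosen by name as genes whose products carry out or tune the antiviral response. The table lists transcripts, so each gene was represented by whichever of its transcripts had the highest mean across all 12 libraries. All 46 symbols were in the table, with 385 of its 197782 transcripts. At least 1 read was found for 43 members, and 35 passed the filter on low values, which asked for 10 or more normalized reads in 3 or more libraries.

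Interferons are secreted cytokines that bind receptors at the cell surface and activate JAK kinases and STAT transcription factors. Complexes of STAT factors with IRF9, and IRF factors alone, bind the interferon-stimulated response element (ISRE) in the promoters of their target genes. The products of these genes modify proteins, degrade or trap viral RNA, or block the entry and release of viruses. In cancer cells exposed to inhibitors of DNA methyltransferases, such genes are known to respond to double-stranded RNA transcribed from derepressed repeats, and in myeloid leukemia cells some of them are known to respond to retinoic acid.

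U937 is an established human leukemia cell line with features of the myelomonocytic lineage, and 3 libraries each were analysed from untreated cells and from cells given DAC, ATRA or DAC+ATRA. DAC, a cytosine analogue that traps DNA methyltransferases, was renewed at 200 nM each day for 3 days together with the medium, and ATRA, the ligand of the retinoic acid receptors, at 1 µM. All cells grew in RPMI, and per the labels this held 20% FCS and GM-CSF at 5 ng/ml. The labels give 96 h for untreated and 72 h for treated cells, whereas the study's methods give 72 h for all, ATRA only from the third dose of DAC, and a lower share of FCS. The design text calls the triplicates technical, so the p-values below measure only the spread between these libraries. In RNA from whole cultures, more cells expressing a gene and more RNA per cell cannot be told apart.

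Between 8042435 and 10683593 reads per library were assigned to transcripts, and 3 reads equal 2.50 to 3.71 normalized reads. Of 14 myelomonocytic markers, 11 had at least 10 normalized reads in every library. The summed level of all 14 was 66578 to 74028 normalized reads in untreated, 41454 to 59516 in DAC, 44955 to 63453 in ATRA and 38301 to 40974 in DAC+ATRA libraries. MPO, a granule enzyme of immature myeloid cells, carried most of this sum in untreated cells. It averaged 52119.6, 26664, 33033 and 14973 in these groups. From untreated cells to DAC+ATRA, the means of FUT4 (5282 and 1921), CSF3R (358 and 229) and CD33 (846 and 760) fell as well. So did those of FCGR1A (161 and 132) and SPI1 (127 and 118). The means of CEBPA (7791 and 12930.1), CD4 (3720 and 4462), ITGAM (202 and 2725) and LYZ (164 and 1097) went the other way. So did those of ANPEP (21.4 and 103), CSF1R (0.611 and 17.1) and ITGAX (6.72 and 103). The mitochondrial share of reads was 40.6% to 42.5% in untreated, 37.0% to 40.4% in DAC, 38.9% to 41.1% in ATRA and 36.3% to 38.3% in DAC+ATRA libraries. PTPRC, a marker of all leukocytes, was listed at 0 throughout, so a value of 0 in this table need not mean that a gene was silent. Of 14 markers of other cell types, 9 stayed under 10 in every library, and HBB of red cells was at 0. The summed level of these markers nevertheless moved with treatment, from 289 to 309 normalized reads in untreated libraries to 3135 to 3162 with DAC, 529 to 715 under ATRA and 4281 to 4689 with DAC+ATRA. PECAM1, CD79A and COL1A1 carried most of it. The part of these markers and of the mitochondrial share in the results below was not tested.

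Promoter sequences of the members were read from RefSeq on GRCh38.p14, as windows of 300 bases from 250 before to 50 after each transcription start. Windows were found for 39 members. IFIT2, IFITM2, MX2, OAS2, OASL, UBA7 and USP18 had none. The core of the ISRE, searched as GAAANNGAAA on both strands with overlaps allowed, was present in 28 of these 39 members (71.8%), compared with 4.38% of the 27305 symbols with a window. At least 2 matches were held by 31.5% of the member windows and 0.259% of all windows. The letters of a GAS element, TTCNNNGAA, which STAT dimers bind, were present in 30.8% of the members and 9.38% of all symbols. Since the members were chosen as interferon-stimulated genes, these shares describe the set and test nothing.

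The stretches below lie before the transcription start and clear of exons in GENCODE 44, with ISRE core matches in capitals and 20 bases on either side where available. The first set comprises genes whose RNA rose with DAC, with or without an additional rise with ATRA. RTP4 and DDX60L rose with each single agent, and IFI44L, IFIT1, IFIT3, ISG15 and IFI44 passed the threshold with DAC and not with ATRA. Except for IFIT3, the latter had a called difference between the agents. It comes from the libraries that sorted these genes and is a description only.
RTP4 (chr3:187368323-187368384, plus strand): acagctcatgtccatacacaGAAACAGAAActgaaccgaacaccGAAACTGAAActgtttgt
DDX60L (chr4:168480515-168480592, minus strand): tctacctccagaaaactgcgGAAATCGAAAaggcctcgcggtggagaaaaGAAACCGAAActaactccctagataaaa
IFI44L (chr1:78620264-78620313, plus strand): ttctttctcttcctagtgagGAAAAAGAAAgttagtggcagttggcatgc
IFIT1 (chr10:89392487-89392545, plus strand): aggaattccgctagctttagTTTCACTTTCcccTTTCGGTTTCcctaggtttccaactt
IFIT3 (chr10:89327821-89327904, plus strand): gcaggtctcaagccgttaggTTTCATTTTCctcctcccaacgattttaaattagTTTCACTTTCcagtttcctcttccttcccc
ISG15 (chr1:1013364-1013419, plus strand): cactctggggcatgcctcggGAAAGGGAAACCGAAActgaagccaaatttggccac
IFI44 (chr1:78649751-78649788, plus strand): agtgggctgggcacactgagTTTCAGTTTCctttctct

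Further sequences are shown because they carry the same core next to other outcomes. The transcripts used for IFITM3 and LGALS3BP had reads in treated libraries only and stayed under the filter. HERC5 has the most matches of any tested member that did not pass the threshold in any treatment.
IFITM3 (chr11:320866-320932, minus strand): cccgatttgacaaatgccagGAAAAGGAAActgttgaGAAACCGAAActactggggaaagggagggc
LGALS3BP (chr17:78979952-78980001, minus strand): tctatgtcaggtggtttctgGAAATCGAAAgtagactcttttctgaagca
HERC5 (chr4:88456974-88457074, plus strand): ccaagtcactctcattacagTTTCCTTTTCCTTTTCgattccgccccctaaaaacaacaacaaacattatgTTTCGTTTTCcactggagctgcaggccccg

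In ISG15 and HERC5 a pair of matches overlaps, so that the capitals run on for 16 bases. IFI44L holds a further match nearer to its start, which is not printed because the stretch around it overlaps an annotated exon. No match was found in the windows of 11 members, OAS1, HELZ2, XAF1 and SAMD9L among them. Of the 25 members with a window that rose with DAC+ATRA, 17 held a match, and of the 4 tested members with a window that did not rise, 3 held one.

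**Figure D1:**
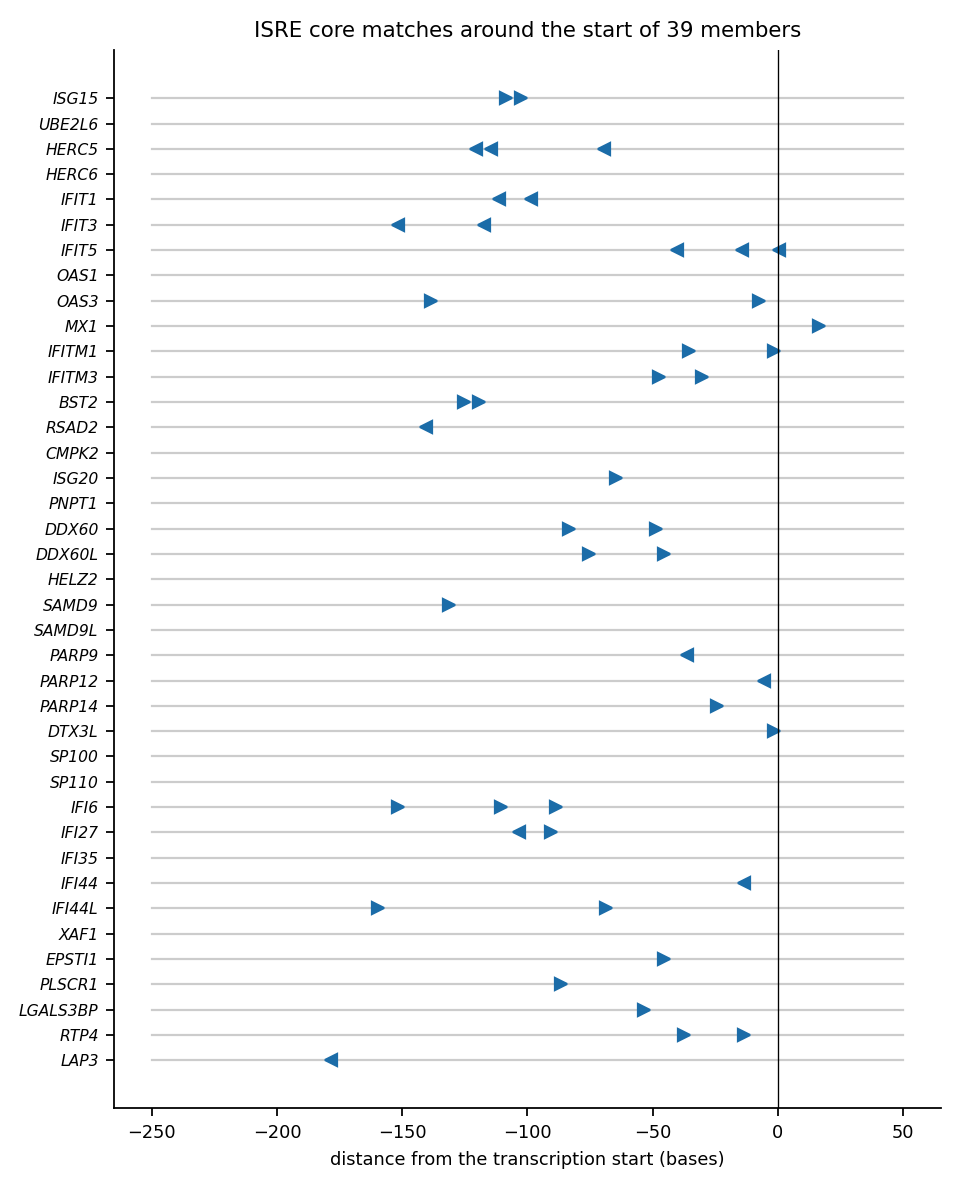
Positions of GAAANNGAAA in 39 members, 1 window per gene (the window with most matches, or the first by position), with the distance from the transcription start in bases on the x axis. Triangles point along the strand of the match and are centred on it. HERC5, IFIT5 and IFI6 hold 3 matches each, and 11 windows are empty.

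Each treatment was compared with untreated cells in a fit with limma over 9024 transcripts, and a transcript was called at an adjusted p under 0.01. With DAC, 24 of the 35 tested members rose and 0 fell, while 30.7% of all tested transcripts rose and 8.69% fell. Their median log2 fold change was 1.10, against 0.22 over all transcripts tested. With ATRA, 15 rose and 0 fell, against 6.48% and 2.67% of all transcripts, and the medians were 0.58 and 0.00. With DAC+ATRA, 29 rose and 1 fell, against 32.6% and 14.2%, with medians of 2.16 and 0.20.

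Log2 fold changes are differences of log2(normalized reads + 1), given with their standard errors, and understate the change of genes with few reads. For 9 of the 35 members no untreated library reached the minimum of the filter. The 9 were ISG15, IFIT1, IFIT3, OASL, MX1, PARP14, IFI35, IFI44 and IFI44L. They entered the test through the treated groups, IFIT1 through DAC+ATRA alone, and the counts over the tested members are a description only. The 3 comparisons also share the untreated libraries. Of the calls over all transcripts, 77.9% were upward with DAC and 69.7% with DAC+ATRA with the deposited size factors, and 59.3% and 59.2% with TMM in limma. With ATRA 585 transcripts rose and 241 fell, 70.8% upward. TMM in limma gave 631 and 392 (61.7%), and library size scaling 556 and 460 (54.7%). Without untreated library 2, 491 transcripts rose and 138 fell with ATRA, and 13 members rose and 0 fell. The scaling moved the median over all transcripts, which with DAC was 0.22 with the deposited size factors and 0.02 with TMM, and with DAC+ATRA 0.20 and 0.06. With TMM in limma, 21 members rose and 1 fell with DAC, and 28 rose and 2 fell with DAC+ATRA.

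**Figure D2:**
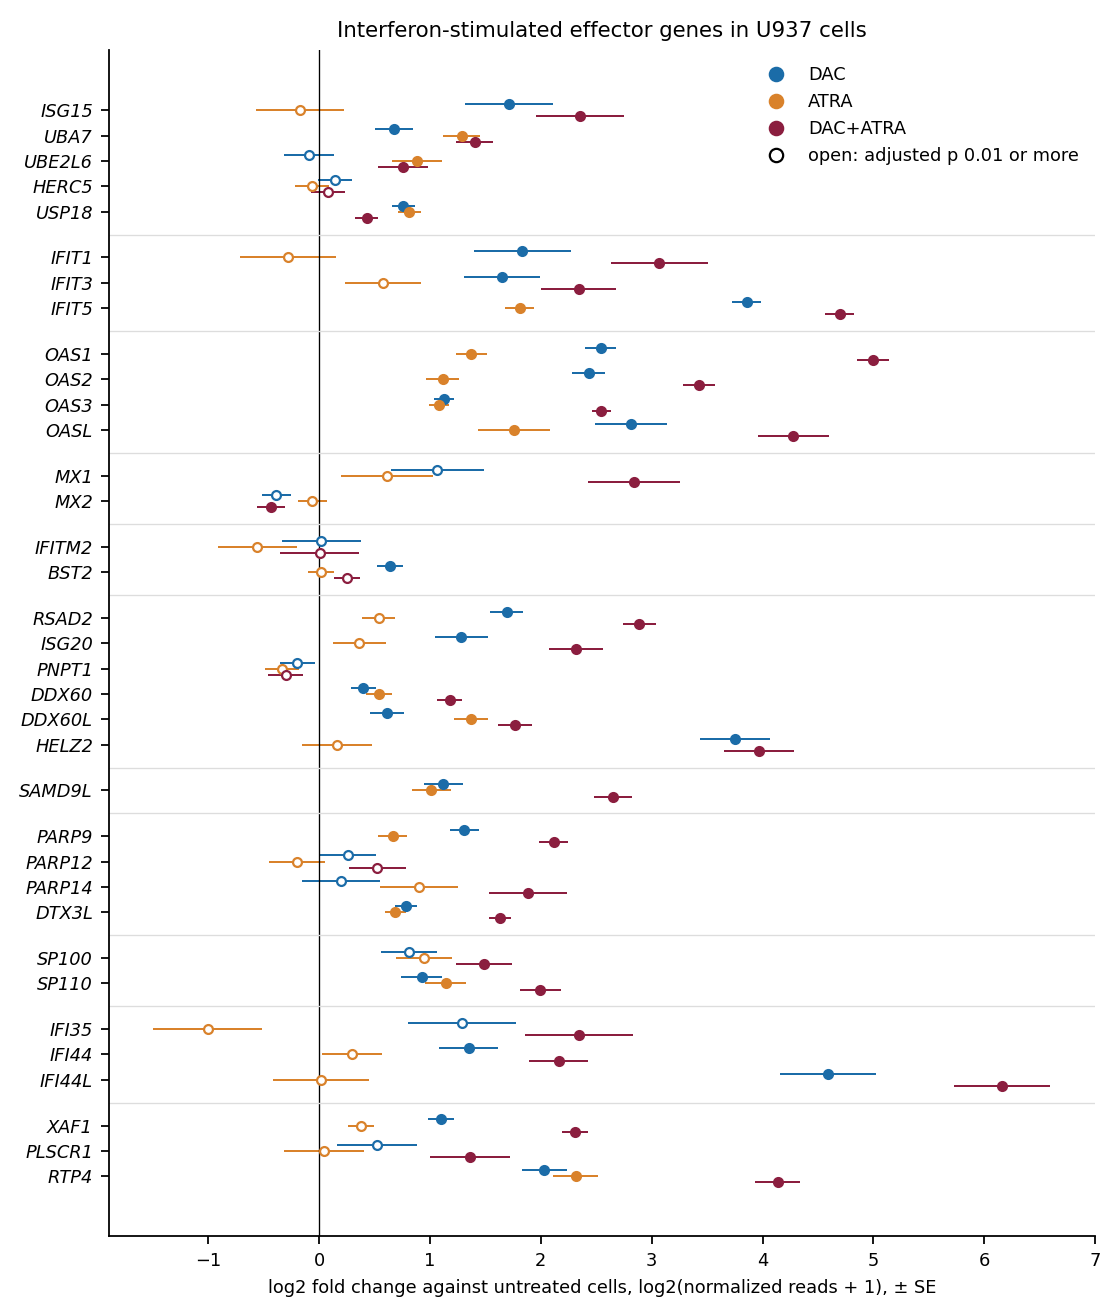
Log2 fold changes of the 35 tested members against untreated cells, on log2(normalized reads + 1), with standard errors, grouped by role. Filled symbols have an adjusted p under 0.01 in limma. IFI44L with DAC+ATRA lies farthest to the right at 6.16, the OAS genes are filled in all 3 treatments, and HERC5, IFITM2, PARP12 and PNPT1 have no filled symbol.

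By response to the single agents, 14 members rose with each of DAC and ATRA, namely OAS1, OAS2, OAS3, OASL, IFIT5, RTP4, USP18, UBA7, DDX60, DDX60L, SAMD9L, PARP9, DTX3L and SP110, beside 4.61% of all tested transcripts. A further 10 passed the threshold with DAC and not with ATRA, namely ISG15, IFIT1, IFIT3, IFI44, IFI44L, HELZ2, RSAD2, ISG20, XAF1 and BST2, beside 26% of all transcripts. UBE2L6 alone passed it with ATRA and not with DAC, as did 1.87% of all. MX1, IFI35, PARP14, PLSCR1 and SP100 passed it with DAC+ATRA and with neither single agent, beside 5.05%. No untreated library of MX1, IFI35 or PARP14 reached the minimum of the filter, so this count is a description only. Of these 5, the difference between DAC+ATRA and DAC was called for MX1 and PARP14, and not for IFI35 (1.05 ± 0.49, adjusted p = 0.158), PLSCR1 (0.84 ± 0.36, adjusted p = 0.12) or SP100 (0.68 ± 0.25, adjusted p = 0.0714). HERC5, IFITM2, MX2, PARP12 and PNPT1 rose in none of the treatments, as was the case for 62.4% of all transcripts.

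The single agents were compared with each other directly. RNA was lower with ATRA than with DAC for 14 members, and higher for UBE2L6, UBA7 and DDX60L. Over all transcripts tested, 25.4% were lower and 7.49% higher, so that 22.8% of the calls were upward, against 39.2% with TMM in limma. The largest differences were those of IFI44L (-4.57), HELZ2 (-3.59), IFI35 (-2.29), IFIT1 (-2.11) and IFIT5 (-2.05). The call was lost for IFIT1 in DESeq2 (adjusted p = 0.0196), and for IFI35 and PARP9 in edgeR without DAC library 6 (adjusted p = 0.0379 and 0.0183). Of the 10 genes that passed the threshold with DAC and not with ATRA, 9 were lower with ATRA than with DAC. The 10 were picked by their calls in the same libraries, so this count is a description and tests nothing further. Leaving out 1 library ended the call for IFI44 (DAC library 5 or 6 or ATRA library 9, adjusted p up to 0.0235), ISG20 (DAC library 5 or 6 or ATRA library 8, up to 0.0275), UBA7 (DAC library 4 or 5 or ATRA library 7 or 8, up to 0.0306) and UBE2L6 (DAC library 4 or ATRA library 8, up to 0.0136). MX2 was called higher with ATRA than with DAC under TMM in limma (0.50, adjusted p = 0.00133), and not with the deposited size factors (0.32 ± 0.13, adjusted p = 0.0491). ISG20 also lost it with TMM in limma (adjusted p = 0.0188). For IFIT3, the exception among the 10, the log2 difference was -1.08 ± 0.34 (adjusted p = 0.0142), and it was called without DAC library 4 or ATRA library 8 (adjusted p = 0.00751 and 0.00706).

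The ISG15 system attaches the ubiquitin-like protein ISG15 to other proteins, with UBA7 as activating enzyme, UBE2L6 as conjugating enzyme and HERC5 as main ligase, while USP18 removes it. Of 5 tested members, 3 rose with DAC, 3 under ATRA and 4 with DAC+ATRA, where 30.7%, 6.48% and 32.6% of all tested transcripts rose. ISG15 had 5.51, 1.82 and 3.69 normalized reads in untreated cells, 13.0, 13.6 and 13.9 with DAC, 2.11, 2.73 and 4.16 under ATRA and 12.7, 31.6 and 24.7 with DAC+ATRA. Its DAC and DAC+ATRA libraries lay above all untreated and ATRA libraries, but few reads stood behind them. The log2 fold change was 1.72 ± 0.40 with DAC (adjusted p = 0.00116), -0.18 under ATRA and 2.35 ± 0.40 with DAC+ATRA. With DAC, the call was lost in DESeq2 (adjusted p = 0.0143) and without untreated library 2 (adjusted p = 0.0107).

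UBA7 had 51.5, 81.9 and 58.2 normalized reads in untreated cells, 104, 89.6 and 109.6 with DAC, 166, 156 and 142 under ATRA and 182, 173 and 149.5 with DAC+ATRA. Levels rose from untreated over DAC to ATRA with no overlap, and ATRA and DAC+ATRA libraries overlapped. On the log2 scale the fold changes were 0.68, 1.29 and 1.40, and the call with DAC was lost with TMM in limma (log2 fold change 0.47, adjusted p = 0.0228) and without untreated library 1 or 3 or DAC library 6 (adjusted p from 0.0121 to 0.0185). UBE2L6 had 67.1, 58.3 and 68.3 normalized reads in untreated cells, 54.0, 52.6 and 77.7 with DAC, 120.4, 171 and 82.4 under ATRA and 88.6, 119 and 125 with DAC+ATRA. Its ATRA and DAC+ATRA libraries lay above the untreated ones, by 0.88 ± 0.22 and 0.76 ± 0.22, whereas DAC and untreated libraries overlapped. These calls were close to the threshold, with adjusted p = 0.00961 and 0.00689 in limma, and were lost in 13 and 11 of 25 alternatives. Without ATRA library 8, the highest, the log2 fold change with ATRA was 0.62 (adjusted p = 0.0796).

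HERC5, the ligase, had 87.3, 71.9 and 85.0 normalized reads in untreated cells, 86.5, 82.8 and 101 with DAC, 82.4, 77.4 and 73.2 under ATRA and 83.2, 90.5 and 84.0 with DAC+ATRA. All treatments overlapped with untreated cells, with log2 fold changes from -0.06 to 0.14. USP18, which also restrains signalling from the type I interferon receptor, had 881, 887 and 877 normalized reads in untreated cells, 1552, 1443 and 1490.0 with DAC, 1695, 1627 and 1353 under ATRA and 1069, 1308 and 1202 with DAC+ATRA. Its level was higher in every treated library than in every untreated one, and every DAC+ATRA library lay below all DAC and all ATRA libraries. Between DAC+ATRA and ATRA the log2 difference was -0.38 ± 0.10 (adjusted p = 0.00486), a call lost without ATRA library 7 or 8 or DAC+ATRA library 10 or 12 (adjusted p from 0.0153 to 0.037), and between DAC+ATRA and DAC it was -0.33 ± 0.10 (adjusted p = 0.0318). Against untreated cells, the log2 fold changes of USP18 were 0.76 ± 0.10, 0.81 ± 0.10 and 0.43 ± 0.10, the last lost without DAC+ATRA library 11 (adjusted p = 0.0141). USP18 has a near-identical copy in the genome, USP41, and the sharing of reads between them is uncertain. HERC6, a relative of HERC5, stayed under the filter with 0.924 to 1.84 normalized reads in untreated and 7.41 to 12.7 in DAC+ATRA libraries.

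IFIT proteins bind viral RNA at its 5′ end. The genes lie side by side on chromosome 10, IFIT5 at chr10:89414568-89420997 (GRCh38). IFIT1, IFIT3 and IFIT5 rose with DAC and with DAC+ATRA, as did 30.7% and 32.6% of all tested transcripts. IFIT5 rose with ATRA too, as did 6.48%. IFIT1 passed the filter through DAC+ATRA libraries alone, so its calls are given as a description. IFIT5 had 74.4, 55.5 and 64.6 normalized reads in untreated cells, 964, 1027 and 861 with DAC, 256, 226 and 206 under ATRA and 1503, 1678 and 1923 with DAC+ATRA. The groups did not overlap anywhere, in the order untreated, ATRA, DAC, DAC+ATRA. The log2 fold changes were 3.86 ± 0.13 with DAC, 1.81 ± 0.13 under ATRA and 4.69 ± 0.13 with DAC+ATRA (adjusted p = 5.75e-17).

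IFIT3 had 8.27, 3.64 and 4.62 normalized reads in untreated cells, 13.0, 21.4 and 22.9 with DAC, 6.34, 11.8 and 7.49 under ATRA and 28.0, 28.4 and 35.8 with DAC+ATRA. DAC and DAC+ATRA libraries lay above all untreated ones, and ATRA libraries overlapped with untreated. IFIT1, which recognizes RNA caps lacking a methyl group, had 0, 0.91 and 0.924 normalized reads in untreated cells, 4.32, 6.82 and 2.99 with DAC, 1.06, 0 and 0 under ATRA and 10.8, 11.6 and 13.6 with DAC+ATRA. With 2 reads in all untreated and 34 in all DAC+ATRA libraries, the ratio was 19.4, with an exact 95% interval from 4.97 to 167 that covers counting error only. IFIT1 with DAC lost its call in edgeR (adjusted p = 0.0136) and DESeq2 (adjusted p = 0.0497) and without untreated library 1 (adjusted p = 0.0142). IFIT2 reached no more than 6.32 normalized reads in any library and was not tested.

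Oligoadenylate synthetases sense double-stranded RNA. OAS1, OAS2 and OAS3 make the 2′-5′ oligoadenylates that switch on RNase L, while OASL lacks this activity and binds the sensor RIG-I. All 4 rose in each of the 3 treatments, as did 30.7%, 6.48% and 32.6% of all tested transcripts with DAC, ATRA and DAC+ATRA. With DAC+ATRA all were called above each single agent, beside 4.21% of all tested transcripts. For OASL the call against DAC was lost in 4 alternatives. OAS1, OAS3 and OAS2 are neighbours on chromosome 12, from chr12:112906962 to the end of OAS2 at chr12:113011723, and OASL lies at chr12:121019111-121039246.

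OAS1 had 23.0, 23.7 and 26.8 normalized reads in untreated cells, 142, 155 and 144 with DAC, 68.6, 69.2 and 57.4 under ATRA and 778, 767 and 895 with DAC+ATRA. The 4 groups were fully separate, and DAC+ATRA libraries lay far above those with DAC. OAS1 had log2 fold changes of 2.54 ± 0.14, 1.37 ± 0.14 and 5.00 ± 0.14 (adjusted p = 4.85e-12, 3.4e-07 and 6.5e-17). OAS2 had 34.0, 33.7 and 28.6 normalized reads in untreated cells, 195, 164 and 174 with DAC, 65.5, 72.8 and 73.2 under ATRA and 309, 368 and 389 with DAC+ATRA, in the same order of groups and without overlap. Its log2 fold changes were 2.43 ± 0.15, 1.11 ± 0.15 and 3.43 ± 0.15.

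OAS3 had 1370.3, 1497 and 1488 normalized reads in untreated cells, 3177, 3236 and 3105 with DAC, 3222, 2991 and 3000.4 under ATRA and 7771, 8706 and 9024 with DAC+ATRA. Here DAC and ATRA libraries overlapped, with log2 fold changes of 1.13 ± 0.09 and 1.08 ± 0.09, and DAC+ATRA reached 2.55 ± 0.09. OASL had 2.76, 0.91 and 1.85 normalized reads in untreated cells, 19.5, 19.5 and 15.9 with DAC, 10.6, 6.37 and 8.32 under ATRA and 44.3, 53.7 and 59.3 with DAC+ATRA. With 6 reads in all untreated libraries and 148 in all DAC+ATRA libraries, its ratio was 28.1 (exact 95% interval 12.6 to 77.9, counting error only). OASL with ATRA (1.76 ± 0.32, adjusted p = 0.000489) lost its call in DESeq2 (adjusted p = 0.0169) and when only these 2 groups were fitted (adjusted p = 0.0163).

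**Figure D3:**
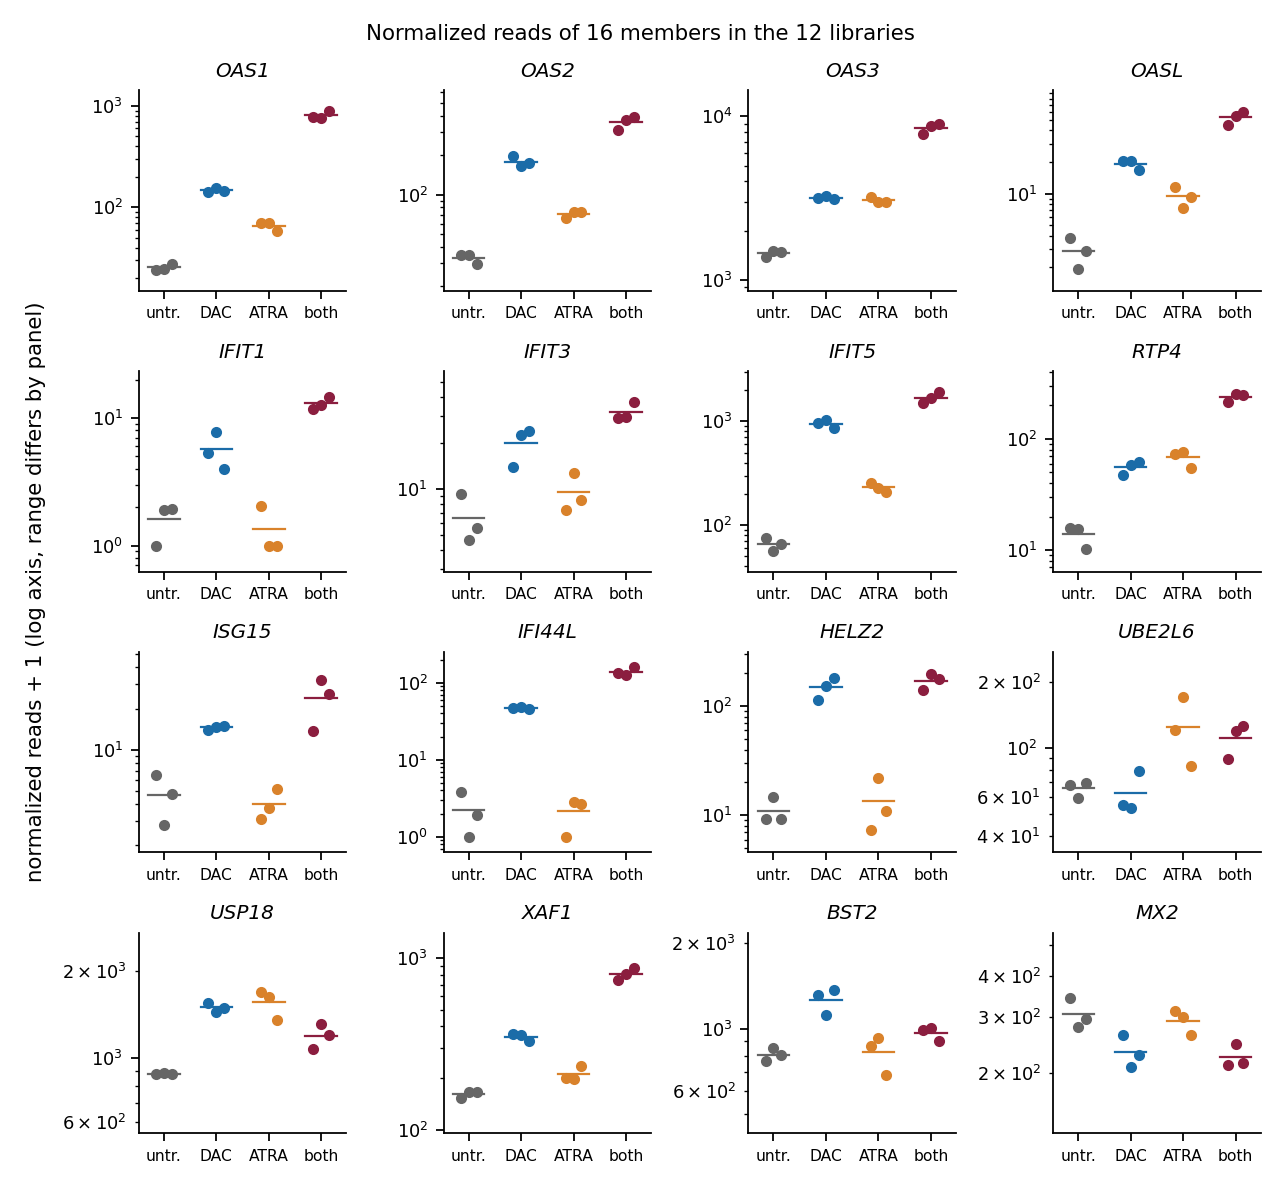
Normalized reads + 1 of 16 members in each library, on log axes whose range differs by panel, with untreated cells in gray, DAC in blue, ATRA in orange and DAC+ATRA in red. Points are libraries and bars are group means. The OAS genes, IFIT5 and RTP4 stand higher in every treated group, ISG15, IFIT1, IFI44L and HELZ2 only where DAC was present, and USP18 is lower with both agents than with either.

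MX1 and MX2, dynamin-like GTPases that act on incoming viruses, are encoded next to each other on chromosome 21. MX1 had 1.84, 7.28 and 2.77 normalized reads in untreated cells, 7.57, 12.7 and 5.98 with DAC, 4.22, 9.10 and 4.99 under ATRA and 24.4, 34.7 and 34.6 with DAC+ATRA, in a transcript annotated as retained intron. Only DAC+ATRA libraries lay above all untreated ones, by 2.84 ± 0.42 (adjusted p = 6.33e-06). With DAC the value was 1.07 ± 0.42 (adjusted p = 0.0377), and when all rows of MX1 were summed it was called there (log2 fold change 1.26, adjusted p = 0.000593). MX1 with DAC was also called without untreated library 2, the highest of its group (log2 fold change 1.51, adjusted p = 0.00586).

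MX2 had 341, 277 and 294 normalized reads in untreated cells, 263, 208 and 227 with DAC, 312, 299 and 262 under ATRA and 212, 246 and 215 with DAC+ATRA. DAC and DAC+ATRA libraries lay below all untreated ones, by -0.39 ± 0.13 (adjusted p = 0.0176) and -0.43 ± 0.13 (adjusted p = 0.00732), and ATRA libraries overlapped with untreated. MX2 depended on the scaling, as with TMM in limma it fell with DAC as well (log2 fold change -0.59, adjusted p = 0.00023). With all rows of MX2 summed it fell with DAC (-0.41, adjusted p = 0.00291), and with DAC+ATRA the value was -0.25 (adjusted p = 0.0462). The call with DAC+ATRA was also lost without untreated library 1 or 3 or DAC+ATRA library 10 or 12, with adjusted p from 0.0172 to 0.049.

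Tetherin, the product of BST2, holds budding virus at the cell surface, and IFITM proteins block the fusion of viral and cellular membranes. BST2 had 768, 849 and 806 normalized reads in untreated cells, 1308, 1115 and 1362 with DAC, 868, 925 and 682 under ATRA and 989, 1001 and 902 with DAC+ATRA. DAC libraries lay above all others, DAC+ATRA libraries above the untreated ones, and ATRA libraries overlapped with untreated. The log2 fold change was 0.64 ± 0.12 with DAC (adjusted p = 0.00011) and 0.25 ± 0.12 with DAC+ATRA (adjusted p = 0.0678). Between DAC+ATRA and DAC the log2 difference of BST2 was -0.38 ± 0.12 (adjusted p = 0.025), and it was called lower in DESeq2 (adjusted p = 0.00541), with library size scaling (0.00565), when only these 2 groups were fitted (0.00916) and without ATRA library 9 (0.00364). IFITM2 had 11.9, 11.8 and 15.7 normalized reads in untreated cells, 14.1, 9.74 and 16.9 with DAC, 6.34, 7.28 and 13.3 under ATRA and 8.14, 14.7 and 18.5 with DAC+ATRA, and in this transcript, annotated as a target of nonsense-mediated decay, every treatment overlapped with untreated cells. Summed over all of its transcripts, IFITM2 had 12.9 to 19.4 normalized reads in untreated, 19.5 to 29.2 in DAC, 8.45 to 15.0 in ATRA and 21.7 to 29.7 in DAC+ATRA libraries. On these sums DAC and DAC+ATRA libraries lay above all untreated ones without passing the threshold, and IFITM2 was lower with ATRA than with DAC (-1.07, adjusted p = 0.00354) and higher with DAC+ATRA than with ATRA (1.08, adjusted p = 0.00306). The transcript used for IFITM3 had 0 reads in all untreated and ATRA libraries, 3.98 to 4.87 normalized reads with DAC and 7.23 to 10.5 with DAC+ATRA, which is at least 9.51-fold higher than 3 reads over the untreated group allow. Summed over its transcripts, IFITM3 had 0 to 1.82 in untreated, 8.77 to 12.9 in DAC, 0 to 3.17 in ATRA and 13.6 to 16.3 in DAC+ATRA libraries. IFITM1 ranged from 0 to 1.85 in untreated and from 1.24 to 8.77 in DAC and DAC+ATRA libraries. The IFITM genes are similar in sequence, and reads of one may be lost or assigned to another.

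Among enzymes acting on nucleotides and RNA, 5 of 6 tested members rose with DAC, 2 under ATRA and 5 with DAC+ATRA, where 30.7%, 6.48% and 32.6% of all tested transcripts rose. RSAD2, or viperin, which makes a chain-terminating nucleotide, had group means of 102, 331, 148 and 767 normalized reads in untreated, DAC, ATRA and DAC+ATRA cells, with log2 fold changes of 1.69 ± 0.15, 0.54 ± 0.15 (adjusted p = 0.016) and 2.89 ± 0.15. ISG20, an exonuclease that degrades viral RNA, rose with DAC (1.28 ± 0.24) and DAC+ATRA (2.32 ± 0.24). CMPK2, a mitochondrial nucleotide kinase, had 1.66 to 9.47 normalized reads in the transcript used and was not tested there. Summed over its transcripts it had 5.51 to 8.31 in untreated, 4.32 to 9.74 in DAC, 2.50 to 6.37 in ATRA and 11.8 to 18.5 in DAC+ATRA libraries, the last above all others.

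HELZ2, a helicase and nuclear receptor coactivator, had 8.27, 13.7 and 8.31 normalized reads in untreated cells, 112, 150.0 and 178 with DAC, 6.34, 20.9 and 9.99 under ATRA and 138, 195 and 177 with DAC+ATRA. DAC and DAC+ATRA libraries overlapped with each other and lay far above the untreated ones, while ATRA libraries overlapped with untreated. HELZ2 had log2 fold changes of 3.75 ± 0.32 with DAC, 0.16 ± 0.32 under ATRA and 3.97 ± 0.32 with both. DDX60L, a helicase-like protein, had 91.9, 73.7 and 76.7 normalized reads in untreated cells, 118, 135 and 118 with DAC, 224, 168 and 242 under ATRA and 277, 246 and 309 with DAC+ATRA, separate in all groups but with its values highest in the ATRA and DAC+ATRA libraries. The log2 fold changes were 0.61 ± 0.15, 1.37 ± 0.15 and 1.77 ± 0.15, and the one with DAC was not called under TMM (limma, log2 fold change 0.41, adjusted p = 0.0395). It was also lost without untreated library 2 or 3 or DAC library 5, with adjusted p from 0.0123 to 0.016.

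DDX60, which assists RIG-I, had means of 315, 418, 459 and 718 normalized reads and rose in all treatments (0.40, 0.54, 1.18). DDX60 with DAC was called in only 13 of the 25 alternatives, and under TMM its log2 fold change was 0.19 (limma, adjusted p = 0.128). DDX60 with ATRA was not called without untreated library 2 (adjusted p = 0.0113). PNPT1, a mitochondrial exoribonuclease, had 216, 174 and 158 normalized reads in untreated cells, 177, 140.3 and 158 with DAC, 159, 152 and 122 under ATRA and 128, 147 and 167 with DAC+ATRA. The groups overlapped, with log2 fold changes from -0.33 to -0.20, but with DAC+ATRA PNPT1 was called lower under TMM (limma, -0.45, adjusted p = 0.00948).

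SAMD9L, which restrains translation and growth, rose from 22.2 to 32.8 normalized reads in untreated libraries to 57.5 to 64.9 with DAC, 54.6 to 58.1 under ATRA and 174 to 179.9 with DAC+ATRA. The log2 fold changes were 1.12 ± 0.17, 1.01 ± 0.17 and 2.65 ± 0.17. Its relative SAMD9 had 4 reads with ATRA, 4 with DAC+ATRA and 0 elsewhere.

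PARP9 and DTX3L form a complex that joins ADP-ribosylation to ubiquitination, and their nearest RefSeq starts lie 38 bases apart on chromosome 3 and run in opposite directions. PARP9 had mean normalized reads of 178, 442, 285 and 775, and DTX3L of 1299.9, 2243, 2098 and 4041, in untreated, DAC, ATRA and DAC+ATRA cells. Both rose in each treatment, PARP9 by 1.31, 0.66 and 2.12, and DTX3L by 0.78, 0.69 and 1.63. PARP9 with ATRA was not called when only these 2 groups were fitted (limma, adjusted p = 0.015). PARP14, an ADP-ribosyltransferase on the same chromosome, passed the threshold with DAC+ATRA only (1.89 ± 0.35), and PARP12 did not pass it (0.53 ± 0.25). With all rows of PARP12 summed, it rose with DAC+ATRA (1.05, adjusted p = 2.76e-05) and with DAC (0.70, adjusted p = 0.0021).

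SP100 and SP110 are proteins of nuclear bodies. SP110 rose with DAC (0.92 ± 0.19), ATRA (1.14 ± 0.19) and DAC+ATRA (2.00 ± 0.19), and its call with DAC was lost in edgeR without DAC library 6 (0.75, adjusted p = 0.0143). SP100 rose with DAC+ATRA (1.49 ± 0.25) and did not pass the threshold with DAC (0.81 ± 0.25, adjusted p = 0.0112) or ATRA (0.94 ± 0.25, adjusted p = 0.0135). SP100 was called with DAC without untreated library 3 or DAC library 4 (adjusted p = 0.00818 and 0.00732). With its rows summed, SP100 was called with DAC (0.55, adjusted p = 0.00955), with ATRA (0.82, adjusted p = 0.00143) and higher with DAC+ATRA than with DAC (0.71, adjusted p = 0.00424).

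IFI44L, a neighbour of IFI44 on chromosome 1 at chr1:78620448-78646145, had the highest log2 fold change of the set. It had 2.76, 0 and 0.924 normalized reads in untreated cells, 45.4, 46.8 and 44.8 with DAC, 0, 1.82 and 1.66 under ATRA and 131, 126 and 157 with DAC+ATRA. All DAC libraries lay above all untreated and ATRA libraries, which overlapped, and DAC+ATRA libraries lay above those with DAC. The ratio of DAC+ATRA to untreated was 112 (4 reads in all untreated libraries, exact 95% interval 43.3 to 412, counting error only), and that of DAC 37.3 (14.2 to 139). Between DAC+ATRA and DAC the log2 difference was 1.57 ± 0.43, with an adjusted p of 0.0138 in limma and 3.32e-06 in edgeR.

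IFI44 had 8.19 to 9.24 normalized reads in untreated, 17.3 to 31.2 in DAC, 9.99 to 11.8 in ATRA and 37.1 to 47.9 in DAC+ATRA libraries. IFI35, an interferon-induced leucine zipper protein, had 1.84, 0.91 and 1.85 normalized reads in untreated cells, 5.40, 1.95 and 10.96 with DAC, 0, 0.91 and 0 under ATRA and 7.23, 15.8 and 13.6 with DAC+ATRA. Only DAC+ATRA passed the threshold (2.34 ± 0.49, adjusted p = 0.000366), and with a pseudocount of 0.1 it did not (adjusted p = 0.0193). With DAC the value was 1.29 ± 0.49 (adjusted p = 0.0335), and without DAC library 5, the lowest of its group, it was called at 1.81 (adjusted p = 0.00394). IFI6, IFI27 and EPSTI1 had no read in any of their transcripts, in any library.

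RTP4, a chaperone for receptors that also binds RNA, had 14.7, 14.6 and 9.24 normalized reads in untreated cells, 46.5, 57.5 and 60.8 with DAC, 71.8, 75.6 and 54.1 under ATRA and 213, 255 and 247 with DAC+ATRA. DAC and ATRA libraries overlapped, and DAC+ATRA libraries lay above both. RTP4 had log2 fold changes of 2.03 ± 0.21, 2.31 ± 0.21 and 4.14 ± 0.21, and that with ATRA was the largest of the set. XAF1, which counters the inhibitor of apoptosis XIAP, had 153, 167 and 165 normalized reads in untreated cells, 361, 354 and 329 with DAC, 199.6, 197 and 235 under ATRA and 741, 800.0 and 875 with DAC+ATRA. The groups were separate, with 1.10 ± 0.12 for DAC, 0.38 ± 0.12 for ATRA (adjusted p = 0.0325) and 2.31 ± 0.12 for DAC+ATRA.

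PLSCR1, a phospholipid scramblase, passed the threshold with DAC+ATRA (1.36 ± 0.36), and not without untreated library 3 or DAC+ATRA library 12 (adjusted p = 0.0209 and 0.0167). LGALS3BP, a secreted glycoprotein, had 0 reads in its untreated libraries, 4.87 to 7.97 normalized reads with DAC, 0 to 1.82 under ATRA and 6.18 to 15.8 with DAC+ATRA, at least 12.2-fold above 3 reads over the untreated group. Summed over all of its transcripts it had 0.91 to 1.85 in untreated and 22.2 to 30.5 in DAC+ATRA libraries. LAP3, an aminopeptidase, had 0.97 to 8.65 in the transcript used, and summed over its transcripts 11.9 to 18.5 in untreated and 14.7 to 23.5 in DAC+ATRA libraries, which overlapped.

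Whether the second agent added to the first was tested directly. Against DAC alone, DAC+ATRA was higher for 18 of the 35 members and lower for 0, while 6.13% of all transcripts were higher and 5.25% lower. Of these calls over all transcripts, 53.8% were upward, against 59.9% with TMM in limma and 47.5% with library size scaling. Without DAC+ATRA library 10, 465 transcripts were higher and 289 lower, against 553 and 474. BST2 and USP18 were both called lower in DESeq2, with library size scaling and without ATRA library 9, with adjusted p for USP18 of 0.00243, 0.00198 and 0.00641. UBE2L6 was just short of the threshold (0.85 ± 0.22, adjusted p = 0.0105) and was called higher in 13 alternatives with the same threshold. Against ATRA alone it was higher for 23 and lower for 1, USP18, while 25.9% and 8.88% of all transcripts were higher and lower. Of the calls over all transcripts in this comparison, 74.5% were upward with the deposited size factors and 63.7% with TMM in limma. Under TMM MX2 was also called lower with DAC+ATRA than with ATRA (-0.48, adjusted p = 0.00153), against -0.37 ± 0.13 (adjusted p = 0.0239) with the deposited size factors. Above both single agents stood 15 members, namely OAS1, OAS2, OAS3, OASL, IFIT5, RTP4, MX1, RSAD2, ISG20, XAF1, SAMD9L, PARP9, DTX3L, DDX60 and SP110, beside 4.21% of all transcripts. The largest additions to DAC were those of OAS1 (2.46 ± 0.14), RTP4 (2.10 ± 0.21) and MX1 (1.77 ± 0.42). MX1 lost this call with its rows summed (0.91, adjusted p = 0.0225) and without DAC library 4 or 6, or without any 1 of the DAC+ATRA libraries (adjusted p from 0.01 to 0.0264). Against DAC, the call also ended when 1 library was left out for OASL (DAC library 6 or DAC+ATRA library 11 or 12, adjusted p up to 0.0196), ISG20 (DAC library 4 or any DAC+ATRA library, up to 0.0343), UBA7 (DAC library 4 or 5 or DAC+ATRA library 10 or 11, up to 0.0264) and PARP14 (DAC+ATRA library 10, 0.0131, and with its rows summed, 0.0109). Against ATRA, that of PLSCR1 ended without ATRA library 7 or 9 or any DAC+ATRA library (adjusted p up to 0.0272).

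The interaction asks whether the combined effect departs from the sum of the single log2 fold changes, that is from the product of the folds. It passed the threshold for 4 members, 2 above and 2 below 0, and for 0.787% and 1.67% of all transcripts. Without ATRA library 9 it passed for 1.05% and 4.3% of all transcripts, with 2 members above and 2 below 0 as before. For OAS1, DAC raised the level by 2.54 without ATRA and by 3.62 with it, an interaction of 1.08 ± 0.20 (adjusted p = 0.00194). For XAF1 these values were 1.10, 1.93 and 0.83 ± 0.16 (adjusted p = 0.00327).

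Below the sum were IFIT5 and USP18. For IFIT5, DAC gave 3.86 without and 2.89 with ATRA, an interaction of -0.97 ± 0.19 (adjusted p = 0.00261). For USP18, DAC gave 0.76 without and -0.38 with ATRA, an interaction of -1.14 ± 0.15 (adjusted p = 4.55e-05). IFIT5, OAS1 and XAF1 lost the call when single libraries were left out, with the highest adjusted p at 0.0171 for IFIT5 without DAC+ATRA library 10, and at 0.0132 for OAS1 and 0.0185 for XAF1 without DAC+ATRA library 12. USP18 kept it in all alternatives run. Larger estimates, such as 2.06 ± 0.69 for IFI35 and 1.55 ± 0.61 for IFI44L, came with few reads and did not pass.

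**Figure D4:**
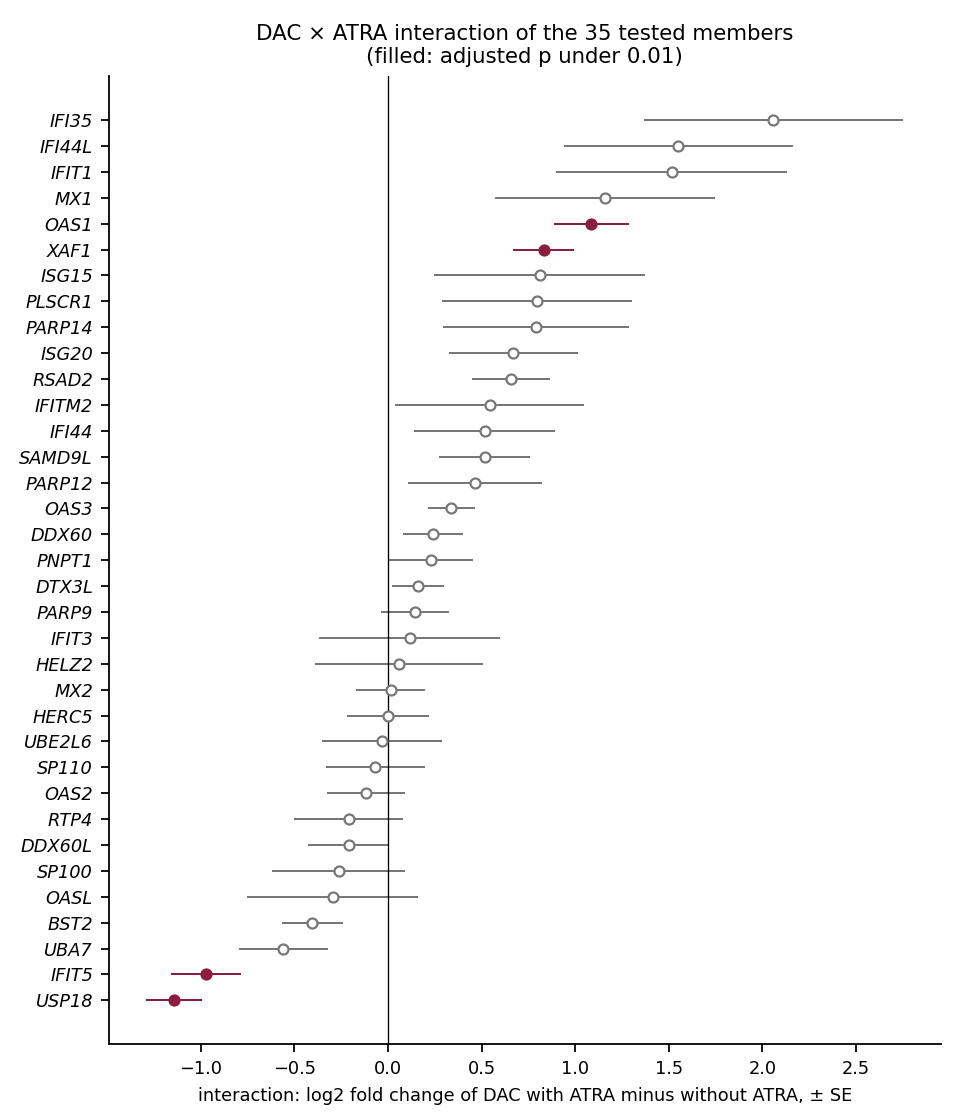
Interaction of DAC and ATRA for the 35 tested members, as the log2 fold change of DAC in the presence of ATRA minus that in its absence, with standard errors. Filled symbols have an adjusted p under 0.01 in limma. USP18 at -1.14 and IFIT5 at -0.97 lie below 0, and XAF1 at 0.83 and OAS1 at 1.08 above it.

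Because the table lists transcripts, other rows of the same genes were examined in a fit over all 19373 transcripts that passed the filter. Of the members, 17 had more than 1 such row, 48 rows in all. With DAC+ATRA, 33 rows rose and 2 fell, beside 25.5% and 16.1% of all 19373 transcripts, and in 11 members every row rose. In none of the 17 did one row rise and another fall. OAS1 had 3 rows with log2 fold changes from 4.38 to 5.74, and HELZ2 3 rows from 3.75 to 4.45. For PARP12, the row used above had 0.53, and 2 of its other 4 rows passed the threshold, at 1.93 and 0.95. MX2 had 7 rows from -0.79 to 1.02, of which 2 fell. For 10 members, the row with the highest mean is annotated as a retained intron (MX1, ISG20, DDX60L, PARP14, SP110, IFI35 and PLSCR1 among those tested), and the values above do not describe their coding transcripts.

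**Figure D5:**
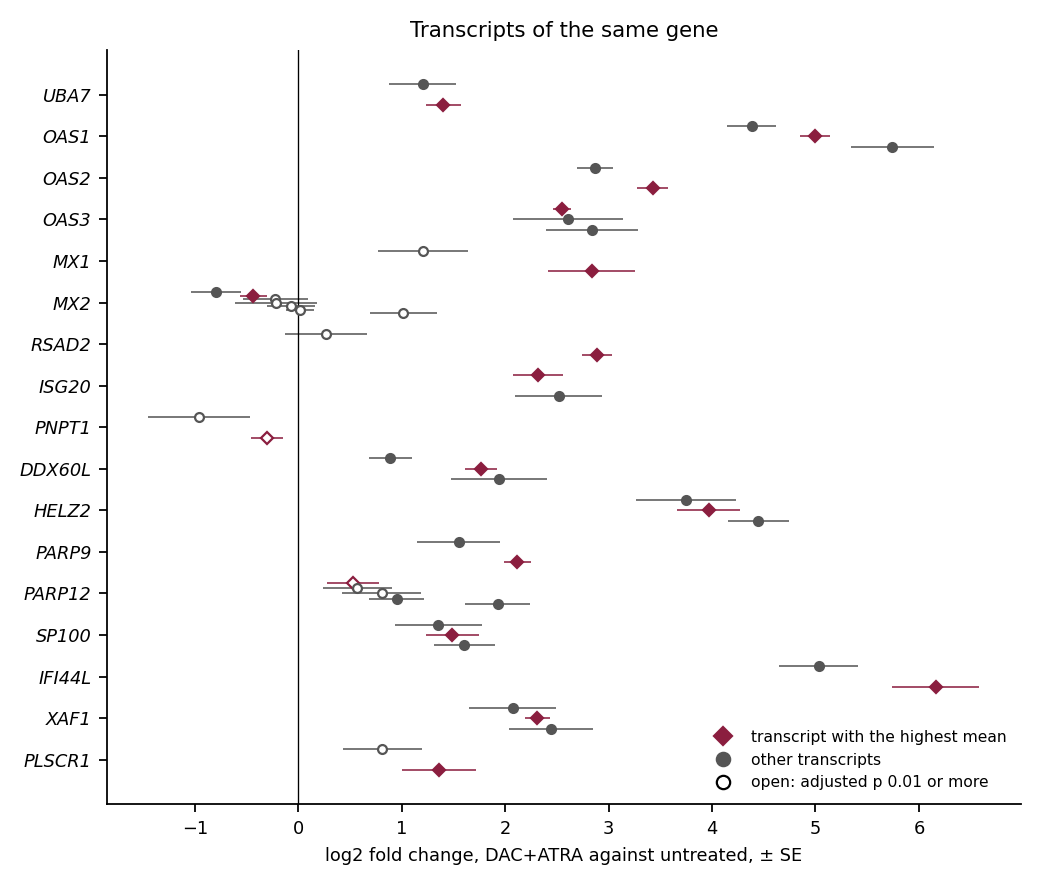
Log2 fold changes with DAC+ATRA of all transcripts passing the filter in the 17 members that had more than 1, with standard errors. Red diamonds mark the transcript used in the comparisons, gray circles the others, and filled symbols an adjusted p under 0.01 in limma over 19373 transcripts. The rows of OAS1 and HELZ2 stand together, and those of MX2 lie on either side of 0.

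Other genes of the interferon pathway, 45 in all, were listed by role. None of the 9 interferon genes passed the filter, and IFNB1 averaged 1.22, 4.47, 0.629 and 4.44 normalized reads in untreated, DAC, ATRA and DAC+ATRA cells. In the same order, IFNL1 averaged 0, 0.332, 0 and 3.88, and IFNE 0.915, 0.325, 3.73 and 0.904. All of these values lie near the level of 3 reads in a library or below it. Of the 24 genes tested, 12 rose with DAC, 4 under ATRA and 18 with DAC+ATRA, and 0 fell, beside 30.7%, 6.48% and 32.6% of all tested transcripts that rose and 8.69%, 2.67% and 14.2% that fell. For 4 of the 24, IFNLR1, DDX58, TLR3 and SOCS1, no untreated library reached the minimum of the filter, so they entered the test through treated groups and the counts are a description only. Of the 20 others, 9 rose with DAC, 4 under ATRA and 14 with both. Among receptors and kinases, IFNLR1, the receptor of lambda interferons, averaged 0, 78.7, 0.581 and 60.8 normalized reads and was listed at 0 in all untreated libraries, while IFNGR2 had the lowest log2 fold change with DAC+ATRA, 0.16 ± 0.35. Among transcription factors, IRF1 averaged 53.5, 125, 338 and 694 normalized reads (log2 fold change with DAC+ATRA 3.67 ± 0.14), and IRF8 was lowest at 0.37 ± 0.20. STAT2, IRF7 and IRF9 were not tested.

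Among sensors and adaptors, TLR3, which senses double-stranded RNA in endosomes, had 18.1, 23.2 and 18.5 normalized reads with DAC+ATRA and at most 6.82 in any other library. It passed the filter through that group alone, and its log2 fold change of 2.60 ± 0.59 is given as a description. MB21D1, which encodes the DNA sensor cGAS, was lowest at 0.28 ± 0.14. Among inhibitors, SOCS1, which blocks JAK kinases, averaged 3.38, 154, 12.3 and 189 normalized reads (log2 fold change with DAC+ATRA 5.86 ± 0.57), and PIAS1 was lowest at -0.07 ± 0.13.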

How the data were processed

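RNA of U937 cells, ribosomal RNA-depleted and read strand-specifically in pairs, was compared between 4 groups of 3 libraries each. The authors aligned reads to hg38 with STAR, counted them per transcript with HTSeq and normalized them with DESeq2, after quality control with FastQC (versions not given in the sources used here). The deposited values are a signal, namely read counts divided by 1 size factor per library. Whole reads were recovered from them by this factor for 100% of values in the library with the lowest share, within 0.01 of a read. How reads were shared among overlapping transcripts was not analysed.

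Protein-coding transcripts (GENCODE 44) and the member rows with at least 10 normalized reads in at least 3 libraries were tested on log2(value + 1) with limma (3.58.1) over all 4 groups, with Benjamini-Hochberg adjusted p under 0.01. On the recovered reads, the quasi-likelihood test of edgeR (4.0.16) and DESeq2 (1.42.0) were alternatives, run in R 4.3.3. Intervals came from scipy 1.17.1 and tables from pandas 2.3.3 on numpy 2.4.6 under Python 3.11.15. The fits were tested on simulated data with known changes.

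The table columns give group and a running number, by which libraries are named, but not the replicate number. The number of value columns of no sample was 0. Values of every library are printed for members among the 5 highest or 3 lowest log2 fold changes of a treatment, those past the threshold of the interaction, and tested members of the IFIT, OAS, IFITM, MX and ISG15 groups. Of pathway genes, the highest and lowest log2 fold change with DAC+ATRA in each role are named, mostly by group means or log2 fold change. The members and lists were chosen with earlier results of these data known.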

Additional observations from a re-analysis of the deposited data

Results flagged for a closer look

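In 4 members the effect of DAC in the presence of ATRA differed from that in its absence by a test of the difference itself (interaction in limma). The log2 difference was 1.08 (SE 0.20, adjusted p = 0.00194) for OAS1, which makes activators of RNase L, and 0.83 (SE 0.16, adjusted p = 0.00327) for XAF1, which counters XIAP. It was -0.97 (SE 0.19, adjusted p = 0.00261) for IFIT5, which binds RNA ends, and -1.14 (SE 0.15, adjusted p = 4.55e-05) for USP18, which removes ISG15. Groups of 3 libraries are too small for a test of single libraries that stand apart.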

How the results depend on the processing

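Members were recounted under 25 alternatives, of which 12 left out 1 library each. Chosen after seeing the data were edgeR without DAC library 6, and size factors from the tested transcripts. With at least 10 normalized reads required in every library, 21 members were tested, and 17 passed with DAC+ATRA against untreated, 13 with DAC+ATRA against ATRA and 11 with ATRA against DAC. Fewer members enter by construction there. Leaving out 1 library gave 21 to 25 members with DAC, 13 to 15 with ATRA, 27 to 30 with DAC+ATRA, 14 to 21 for DAC+ATRA against DAC, 22 to 25 for DAC+ATRA against ATRA, 14 to 18 for ATRA against DAC and 2 to 4 for the interaction. The interaction count was 2 without untreated library 2, DAC+ATRA library 11 or DAC+ATRA library 12, and the cause was not tested. When only the groups compared were fitted, the interaction gave no value. No paired analysis was possible because the columns carry no replicate number.

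Of 5992 values of a member in an alternative, 146 lost and 99 gained the call, and 0 called values reversed. The sign changed in 143, none of them called, for members whose reported log2 fold change was at most 0.21 in size. Over all transcripts, edgeR with TMM called 2287 up and 1605 down with DAC, against 2766 and 784 in the reported fit, and with DAC+ATRA 2634 and 1838 against 2944 and 1279. Some members, such as IFIT1 and IFI35, had few reads, and the part of depth in their values was not tested.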

Other observations

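CG dinucleotides, the sites at which DNA is methylated, varied widely among the member promoters, from 0 to 45 per 300-base window. The median was 8.5 over 54 member windows and 14 over all 35116 windows. The window of IFI44L held 0, those of ISG15 and HERC5 held 20 and 21, and those of PARP12 and LAP3 held 35 each. DNA methylation of these windows was not analysed here.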
